A study of Homo sapiens with 6 samples.

Results

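The ZBTB genes encode transcription factors that pair a BTB domain with C2H2 zinc fingers. The zinc fingers bind DNA, and the BTB domain lets these proteins dimerize and recruit corepressor complexes that carry histone deacetylases, so that most of the family is known for transcriptional repression. In lymphocytes several members set lineage choices, among them ZBTB7B (ThPOK), which commits thymocytes to the CD4 lineage, and ZBTB16 (PLZF), which directs innate-like T cells. ZBTB40 is the member that the study names, and it is set here among its family in vesicle RNA.

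Members were taken by symbol, as genes named ZBTB followed by a number and at most 1 letter. Of 41 such protein-coding genes in RefSeq, 39 had an array probe set listed with their symbol alone, out of 18417 genes measured this way. ZBTB8A and ZBTB8B were listed only on 1 probe set that they share, and were not counted as members. Where a gene had several probe sets, the brightest by its mean over the 6 arrays stood for it.

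The RNA came from extracellular vesicles (EVs), membrane particles that cells release with RNA inside, of 2 human cell lines that differ in CD47, a cell surface receptor for thrombospondin-1. WT EVs were released by JK (Jurkat) T lymphocytes, a T cell leukemia line of genotype CD47_WT, and CD47- EVs by JinB8, a mutant of that line with genotype CD47_mut. Each line gave 3 EV preparations, which the submitters call replicates in cell culture, and p values measure only the spread between these preparations, which may be technical. JinB8 is a single mutant line, so that loss of CD47 cannot be told apart from other differences between the lines. Both lines were cultured for 24 to 48 h in serum-free HITES medium with insulin, transferrin, selenite and hydrocortisone, EVs were precipitated with Exo-quick or Exo-spin (the labels do not say which was used for which preparation), and 300 ng of total RNA was labeled for each Affymetrix human gene array. The deposited values are log2 values from RMA, which equalizes the arrays, so a value is a relative level within the EV RNA, and the amount of RNA per EV was not measured.

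Array medians over all 33297 probe sets ran from 5.08 to 5.14. No detection calls were used here, and 341 olfactory receptor genes, normally silent in T cells, served as a rough gauge of background, with a median log2 level of 5.49 and a 95th percentile of 6.79. Of 15 measured T cell markers, 11 lay above that median and 3 (CD7, LCK and LEF1) above the 95th percentile, while CD2, CD28, ZAP70 and PTPRC lay below the median. The unlogged signal of the 15 markers summed to between 1019 and 1109 in the WT arrays and between 1181 and 1211 in the CD47- arrays, and LEF1 was the 1 marker that passed as higher (adjusted p = 0.00186 from limma). Of the markers of B cells (4 measured), myeloid cells (5), erythroid cells (4) and liver (5), in that order 2, 1, 3 and 2 lay above the median, and none lay above the 95th percentile or passed. The part of these marker levels in the family's values was not tested. CD47 itself had log2 values of 4.72, 4.69 and 4.72 in the WT arrays and 4.58, 4.66 and 4.94 in the CD47- arrays. These overlap and lie below the gauge median, so the CD47 probe set does not check the labels.

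By the probe set that stood for each gene, ZBTB40 and ZBTB42 were the 2 members with the largest differences, both with higher values in CD47- EVs. The other 37 members differed by at most 0.12 on the log2 scale in either direction, though a dimmer probe set of ZBTB34 gave -0.30. No member passed the test. Over all genes 126 passed at an adjusted p under 0.05, a share of 0.684%. The median difference between CD47- and WT EVs was 0.02 over the 39 members and 0.0029 over all 18417 genes, and that of the members was -0.0027 without WT replicate 3. Of the members, 23 had a difference above 0, which was 59.0% against 51.3% of all genes.

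**Figure D1:**
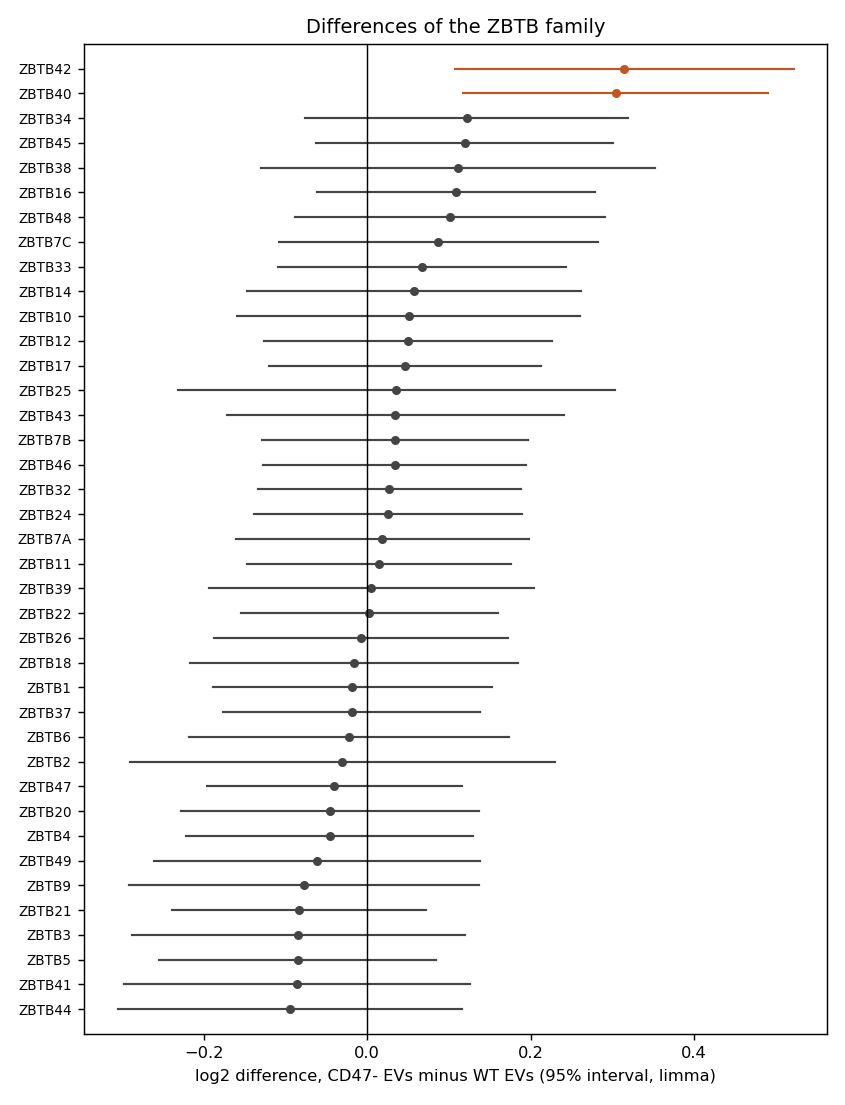
The log2 difference between CD47- and WT EVs (horizontal axis) of each of the 39 ZBTB genes (rows), with the 95% interval from limma as a line. ZBTB42 and ZBTB40 (orange) lie at 0.31 and 0.30 with intervals above 0, and the intervals of the other 37 genes all hold 0.

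ZBTB40 has been linked to bone mineral density and placed at telomeres. Its log2 values were 4.58, 4.65 and 4.69 in the WT arrays and 5.11, 4.86 and 4.87 in the CD47- arrays. Each CD47- array lay above each WT array, and CD47- replicate 1 was the highest. The log2 difference was 0.30 with a 95% interval from 0.12 to 0.49, a 1.23-fold higher value. ZBTB40 did not pass over all genes (adjusted p = 0.211 from limma, unadjusted p = 0.00398). An exact two-sided permutation test of the 6 arrays gave p = 0.1, the smallest value that 3 arrays against 3 allow. Over all genes, 359 (1.95%) had a larger positive difference. Without CD47- replicate 1 the log2 difference of ZBTB40 was 0.22 (adjusted p = 0.508 from limma).

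ZBTB42, which acts in muscle and is closely related to the neuronal repressor ZBTB18, had the largest difference of the family. Its log2 values were 6.92, 7.10 and 6.93 in the WT arrays and 7.47, 7.29 and 7.13 in the CD47- arrays. The groups again did not overlap, by a narrow margin between CD47- replicate 3 and WT replicate 2, and CD47- replicate 1 was again the highest. The log2 difference was 0.31 with a 95% interval from 0.11 to 0.52 (adjusted p = 0.259 from limma), and it was 0.23 without CD47- replicate 1. ZBTB42 and ZBTB40 differed from each other by 0.01 in this measure. The 95% interval, from -0.21 to 0.23, was an equal-variance t interval on the per-array ZBTB42 minus ZBTB40 values, not from limma. An exact permutation test of these values gave p = 0.8, so the order of the 2 members is not settled. ZBTB40 took the first place after a further quantile normalization, with array weights, without CD47- replicate 2 and without WT replicate 3. The related ZBTB18 itself had a difference of -0.02.

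The study names ZBTB40 as the only mRNA that differed both in such EVs and in endothelial cells treated with them. It counts ZBTB40 among mRNAs significantly elevated in CD47- EVs, by a threshold that its main text does not give. In the test used here ZBTB40 was higher but did not pass (adjusted p = 0.211, unadjusted p = 0.00398, both from limma). The 2 results may rest on unlike thresholds. The choice of ZBTB40 rests in part on mRNA arrays of such EVs, so its place near the top of the family is not independent evidence of its direction. Below it, the next members were ZBTB34 at 0.12, ZBTB45 at 0.12 and ZBTB38 at 0.11, a gap of 0.18 on the log2 scale. At an unadjusted p under 0.05 from limma, 2 of 39 members were higher (ZBTB40 and ZBTB42), where 5.16% of all genes were, and 0 were lower, where 2.87% of all genes were. Arrays of the groups did not overlap for the same 2 members as higher, where this held for 7.3% of all genes, and for 1 member, ZBTB21, as lower, where it held for 5.53%. For the family, 2 of 39 is a share of 5.13%, near the background on the higher side.

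**Figure D2:**
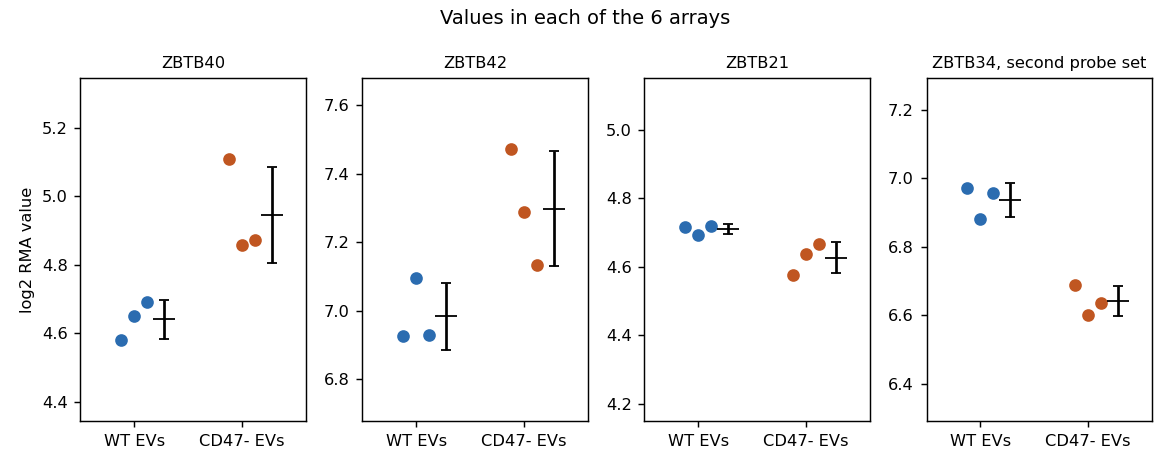
Log2 RMA values (vertical axes, each spanning 1 unit) of ZBTB40, ZBTB42, ZBTB21 and the second brightest probe set of ZBTB34 in the 3 WT (blue) and 3 CD47- (orange) arrays, with the mean and SD of each group in black. ZBTB40 and ZBTB42 lie higher in every CD47- array, ZBTB21 and this ZBTB34 probe set lie lower, and ZBTB21 by 0.08 only.

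The promoters of ZBTB42 and ZBTB21 are shown because these members lie toward opposite ends of the family and their arrays did not overlap. No window of ZBTB40, the third such member, was used here. The sequences are RefSeq windows in GRCh38.p14, each spanning an annotated start, with CpG dinucleotides in capitals, and that of ZBTB42 lies at chr14:104800851-104801150 on the plus strand and that of ZBTB21 at chr21:42010311-42010610 on the minus strand.
ZBTB42: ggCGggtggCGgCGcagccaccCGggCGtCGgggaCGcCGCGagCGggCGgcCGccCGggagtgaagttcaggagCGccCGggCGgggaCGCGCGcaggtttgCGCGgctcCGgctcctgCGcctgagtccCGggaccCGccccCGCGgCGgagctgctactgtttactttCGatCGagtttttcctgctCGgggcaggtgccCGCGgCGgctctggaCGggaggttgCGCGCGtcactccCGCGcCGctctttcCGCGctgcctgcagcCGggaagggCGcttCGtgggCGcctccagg
ZBTB21: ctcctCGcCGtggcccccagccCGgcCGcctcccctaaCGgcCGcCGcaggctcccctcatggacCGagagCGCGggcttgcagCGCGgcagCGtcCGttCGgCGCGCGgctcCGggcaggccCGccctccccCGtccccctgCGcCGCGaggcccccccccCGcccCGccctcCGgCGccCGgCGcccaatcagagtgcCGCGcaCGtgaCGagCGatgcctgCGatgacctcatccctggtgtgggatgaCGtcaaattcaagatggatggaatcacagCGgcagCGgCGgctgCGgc

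The ZBTB42 window held 47 CpG dinucleotides and the ZBTB21 window 41, with a G and C content of 75.7% and 75.3%. Such windows were found for 33 of the 39 members, 66 windows in all because some genes have several starts. The medians and shares that follow count windows and not genes, so genes with many starts, ZBTB38 and ZBTB20 most of all, weigh more. The median was 21 CpG dinucleotides over the members' windows and 14 over all 35116 windows of the table, and the median G and C content was 62.3% against 58.7%. The GC box GGGCGG, searched on both strands as all motifs were, stood in 60.6% of the members' windows and in 45.0% of all windows, and in both windows above. The ETS core CCGGAAG stood in 21.2% against 10.3%, the CCAAT box CCAAT in 39.4% against 34.6%, and the TATA box TATAAA in 9.09% against 11.5%. The E-box CACGTG stood in 12.1% against 7.26%, the Kaiso site TCCTGCNA, which ZBTB33 binds, in 7.58% against 4.69%, and the telomere repeat unit TTAGGG in 6.06% against 9.05%. Of these motifs the ZBTB42 window held the GC box alone, and the ZBTB21 window the GC box, the CCAAT box, the E-box and the telomere repeat unit. Windows of 1 gene can overlap, and a match of letters is not a bound site.

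By brightness on the array, ZBTB40 took place 24 of 39. Probe sets differ in how strongly they bind, so this is an order of array signal and not of mRNA amounts. ZBTB34 had the brightest probe set (mean log2 level 9.64 over the 6 arrays), followed by ZBTB42 (7.14), ZBTB7B (6.72) and ZBTB46 (6.65), a factor of dendritic cells. The dimmest were ZBTB1 (3.65), ZBTB5 (3.86), ZBTB26 (3.87) and ZBTB11 (4.09). ZBTB40, at 4.79, stood between ZBTB49 (4.91), ZBTB48 (4.89) and ZBTB9 (4.82) above it and ZBTB6 (4.78), ZBTB21 (4.67) and ZBTB44 (4.60) below it. The levels of ZBTB9 and ZBTB6 lay closer to that of ZBTB40 than its SD of 0.06 in WT EVs (n = 3 arrays). Those of ZBTB48, ZBTB49 and ZBTB21 lay closer than its SD of 0.14 in CD47- EVs (n = 3 arrays). All of these neighbors are thus not separated from ZBTB40. Of the 39 members, 12 (30.8%) lay above the olfactory receptor median, where 39.4% of all genes did. Above the 95th percentile lay 2 members (ZBTB34 and ZBTB42), and 864 of all 18417 genes. ZBTB40 lay above 26.7% of the olfactory receptor genes, and whether probe sets this dim can show a change at full size was not tested.

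**Figure D3:**
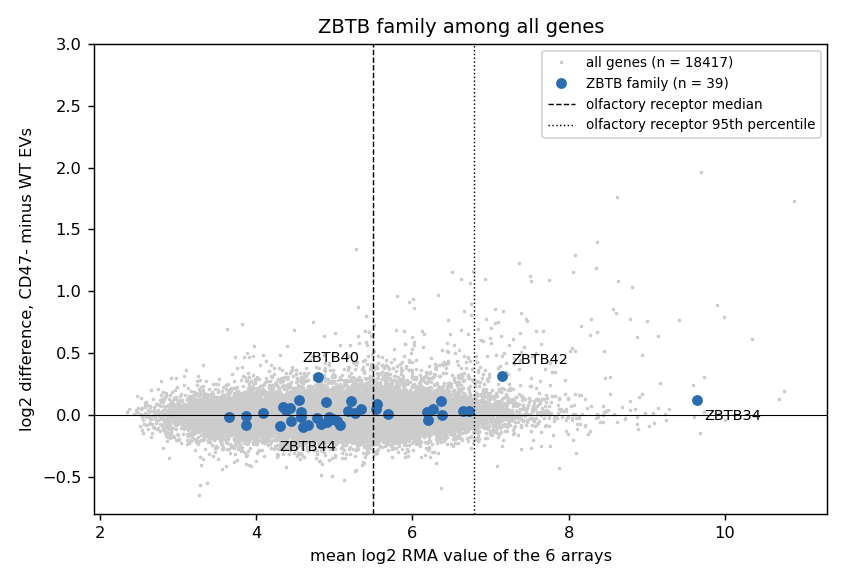
Level, as the mean of 6 log2 RMA values (horizontal axis), and log2 difference, CD47- minus WT EVs (vertical axis), of all 18417 genes (grey) and the 39 ZBTB genes (blue). Most of the family lies close to 0 and, like most of all genes, to the left of the olfactory receptor median (dashed line at 5.49). ZBTB40 and ZBTB42 are the 2 highest of the family's points.

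The family's median overlapped between the groups. The median log2 level over the 39 members was 4.99, 4.92 and 4.90 in the WT arrays and 4.89, 4.96 and 5.03 in the CD47- arrays. For 34 of the members the larger of the 2 group SDs exceeded the size of the difference. That larger SD had a median of 0.12 over the members and ran from 0.04 for ZBTB47 to 0.30 for ZBTB25. The widest spreads came from single arrays. ZBTB25 had 4.71 in WT replicate 1 against 4.19 and 4.18 in the other WT arrays, ZBTB2 had 5.31 in WT replicate 3 against 4.93 and 4.75, and ZBTB38 had 4.87 in WT replicate 3 against 5.30 and 5.31. ZBTB40 had WT values within 0.11 of each other. Its larger SD, 0.14 in CD47- EVs, was above that median, with 5.11 in CD47- replicate 1 against 4.86 and 4.87.

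**Figure D4:**
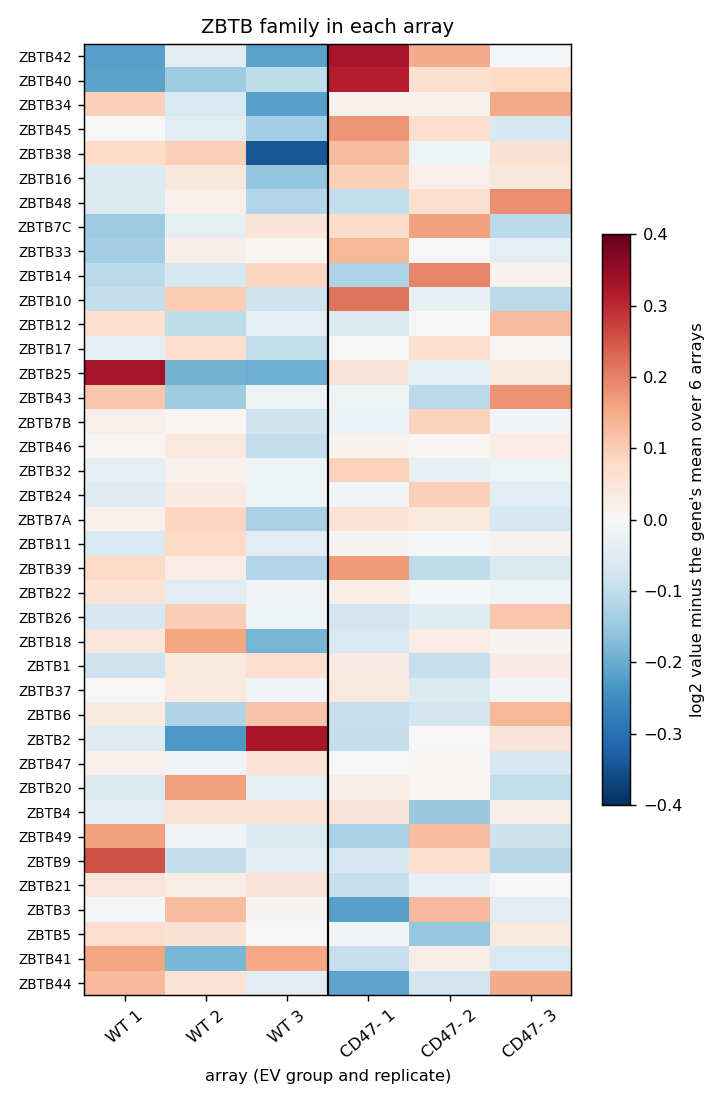
Log2 RMA value minus each gene's own mean over the 6 arrays (color) for the 39 ZBTB genes (rows, ordered by the difference between groups) in the 3 WT and 3 CD47- arrays (columns). ZBTB42 and ZBTB40 are deepest red in CD47- replicate 1, and the strongest colors in the WT columns belong to ZBTB25 in replicate 1 and to ZBTB2 and ZBTB38 in replicate 3.

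Of the 9 members known from lymphocyte development, none passed, 7 had a difference above 0 and the median was 0.03, with a range from -0.05 to 0.11. ZBTB7B had log2 values of 6.74, 6.73 and 6.64 in WT EVs and 6.70, 6.81 and 6.71 in CD47- EVs, with overlapping groups and a difference of 0.03. ZBTB16 had 6.31, 6.41 and 6.21 in WT EVs and 6.46, 6.38 and 6.41 in CD47- EVs, a difference of 0.11, the largest of these 9. The MYC partner ZBTB17 (MIZ1) differed by 0.05, ZBTB25 by 0.04, and ZBTB32, a repressor in activated lymphocytes, by 0.03. ZBTB24, which is mutated in an inherited immunodeficiency with unstable centromeres, differed by 0.03, and ZBTB7A (LRF), a repressor of fetal globin genes, by 0.02. ZBTB1, needed for lymphoid progenitors, differed by -0.02, and ZBTB20, a repressor of fetal genes in liver, by -0.05. The difference was smaller than the larger group SD for each of these members except ZBTB16, where that SD was 0.10.

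The 3 members that bind methylated CpG sites were ZBTB38 (0.11), ZBTB33 or Kaiso (0.07) and ZBTB4 (-0.05). Of the 3 members placed at telomeres, all had a difference above 0, and beside ZBTB40 these were ZBTB48 or TZAP (0.10), a factor that trims long telomeres, and ZBTB10 (0.05). ZBTB48 had 4.84, 4.92 and 4.78 in WT EVs and 4.80, 4.96 and 5.08 in CD47- EVs, with overlapping groups. None of the other 5 passed (adjusted p from 0.879 to 0.957 from limma).

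On the lower side, ZBTB44 had a difference of -0.09, and ZBTB41, ZBTB5, ZBTB3, ZBTB21 and ZBTB9 of -0.09, -0.09, -0.08, -0.08 and -0.08. ZBTB5 is known as a repressor of the cell cycle inhibitor gene CDKN1A. ZBTB21 was the one whose groups did not overlap, with 4.72, 4.69 and 4.72 in WT EVs and 4.58, 4.64 and 4.67 in CD47- EVs (95% interval from -0.24 to 0.07, adjusted p = 0.879 from limma). ZBTB44 had 4.73, 4.66 and 4.56 in WT EVs and 4.39, 4.52 and 4.75 in CD47- EVs, with the highest value of all in a CD47- array. The 95% intervals of the 37 members other than ZBTB40 and ZBTB42 ran from -0.31 at the lowest to 0.35 at the highest. The difference of ZBTB40 lies within the intervals of ZBTB34 and ZBTB38, whose upper bounds were 0.32 and 0.35.

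ZBTB34 was measured by 4 probe sets that disagree. Its brightest, which represents it here, had 9.74, 9.58 and 9.42 in WT EVs and 9.65, 9.65 and 9.79 in CD47- EVs, a difference of 0.12 with overlapping groups. The second brightest had 6.97, 6.88 and 6.96 in WT EVs and 6.69, 6.60 and 6.64 in CD47- EVs. Its difference was -0.30 with groups that did not overlap (unadjusted p = 0.00304 and adjusted p = 0.19 from limma over all probe sets). The other two gave -0.04 and -0.12, so no direction can be given for ZBTB34. ZBTB43, its neighbor among protein-coding genes, differed by 0.03, and ZBTB6 and ZBTB26, the other pair of neighboring members, by -0.02 and -0.01. The 2 probe sets of ZBTB12 hold the same values and count as 1 measurement, the dimmer probe set of ZBTB38 (mean 2.94) gave -0.0025 and that of ZBTB22 gave -0.03. The probe set that ZBTB8A and ZBTB8B share had a difference of -0.11.

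Of 8 BTB zinc finger genes with other symbols, none passed and 4 were above 0, with a median of 0.03. They included BCL6, the repressor of germinal center B cells and follicular helper T cells (-0.16), ZNF131 (-0.13), MYNN (0.09), HIC2 (0.08), PATZ1 (0.07), BCL6B (0.07), HIC1 (-0.02) and GZF1 (-0.01). For comparison by symbol class, the median difference was -0.0096 over 480 ZNF genes, -0.0072 over 36 KLHL genes, which pair a BTB domain with kelch repeats, and -0.05 over 19 ZSCAN genes. None of the genes in these 3 classes passed. Whether the ZBTB family differs from these classes was not tested.

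Among the partners that ZBTB proteins recruit, MTA2 and HDAC2 had differences close to that of ZBTB40. Of the corepressor and deacetylase genes listed, 13 are reported here, and none passed. Of these, 10 had a difference above 0, with a median of 0.09 and a range from -0.16 to 0.34. Those near 0 or lower included HDAC3 (0.03), CHD4 (0.0018), another NuRD subunit, SIN3B (-0.002) and TBL1X (-0.12). MTA2, a subunit of the NuRD complex, had 4.17, 4.25 and 4.21 in WT EVs and 4.62, 4.37 and 4.63 in CD47- EVs, a log2 difference of 0.34 (standard error 0.09, adjusted p = 0.155 from limma). The histone deacetylase HDAC2 had 4.33, 4.51 and 4.31 in WT EVs and 4.71, 4.64 and 4.66 in CD47- EVs, a difference of 0.29 (adjusted p = 0.205 from limma). In both genes the groups did not overlap. Both were dim, with MTA2 above 16.7% and HDAC2 above 20.5% of the olfactory receptor genes. HDAC1 (0.26) and GPS2 (0.17), named after their values were seen, also had groups that did not overlap with CD47- EVs higher, and SIN3A (-0.16), named likewise, had its CD47- arrays lower. At an unadjusted p under 0.05 from limma, 4 of the 13 were higher and 0 lower, beside the 5.16% and 2.87% of all genes given above. Groups did not overlap for 4 of the 13 as higher and 1 as lower, where this held for 7.3% and 5.53% of all genes.

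BTB domains of several proteins also bind cullin-3, the scaffold of a ubiquitin ligase. Of 5 listed genes 3 were measured and none passed, with differences of 0.15 for RBX1, the RING subunit, 0.08 for CAND1, which exchanges substrate receptors, and 0.0068 for CUL3 itself.

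**Figure D5:**
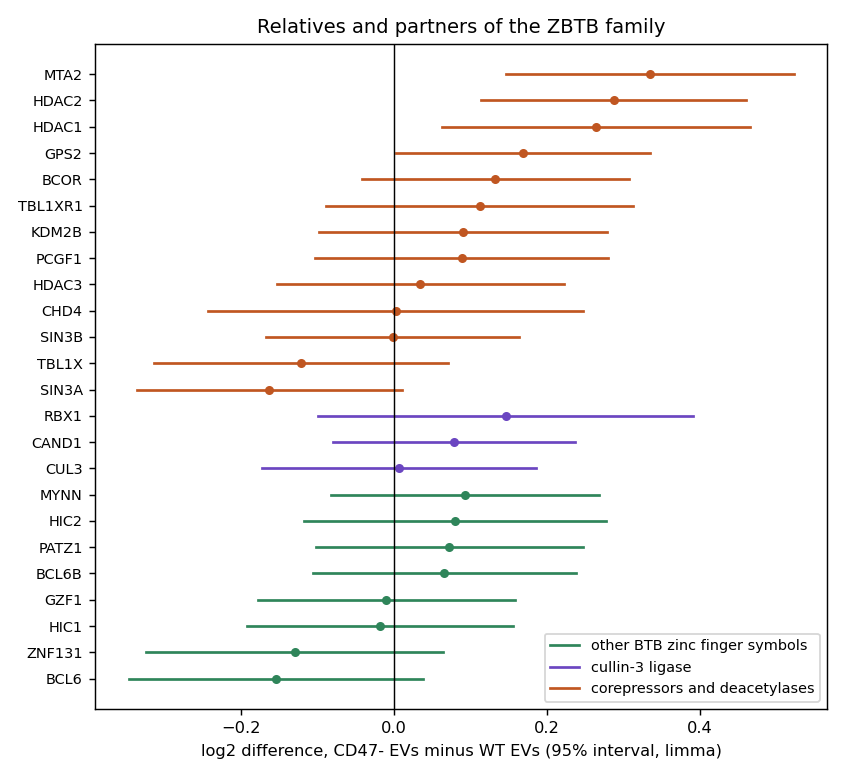
The log2 difference between CD47- and WT EVs (horizontal axis), with the 95% interval from limma as a line, for 13 corepressor and deacetylase genes (orange), 3 genes of the cullin-3 ligase (purple) and 8 BTB zinc finger genes with other symbols (green). MTA2, HDAC2, HDAC1 and GPS2 have intervals above 0, and none of the 24 genes passed after adjustment over all genes.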

How the data were processed

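The 6 arrays carry RNA of 3 WT and 3 CD47- EV preparations, grouped by the submitters' titles. The authors deposited log2 values, computed by RMA with the Affymetrix Expression Console (no version is given in the sources used here), a method that subtracts background, normalizes by quantiles and summarizes probe sets. Which arrays were normalized together is not given either, and RMA would remove a change shared by all genes. Of 33297 probe sets, 19460 were listed with 1 symbol in the platform annotation, 1754 with several and 12083 with none. The brightest probe set represented each gene, with no filter. CD47- and WT EVs were compared with limma 3.58.1 in R 4.3.3 (lmFit, eBayes, group as the only term), adjusted with the Benjamini-Hochberg method over 18417 genes and called at an adjusted p under 0.05. The step was tested on simulated data. Promoters came from RefSeq. Members and lists were chosen with earlier results of these data known.

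The text names ZBTB40, members with an unadjusted p under 0.05 or groups that do not overlap, the 6 with the largest differences in each direction, the 4 brightest and 4 dimmest, the 3 neighbors of ZBTB40 on each side, the role lists, and partners that passed or, where none did, the 2 with the smallest p. Same-numbered arrays deviated from their group means with correlations of 0.02, -0.02 and -0.04 across genes. Between arrays with different numbers these ran from -0.04 to 0.05. No pairing by number was seen, but 3 arrays per group cannot exclude one. The number of arrays limits the precision.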

Additional observations from a re-analysis of the deposited data

How the results depend on the processing

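No ZBTB member passed under any of the alternatives, which were array weights, a replicate block, brighter genes only, a second quantile step, a variance trend setting, centering on olfactory receptors, a per-gene test with unshared variance, other probe sets, other family definitions and leaving out each array. The log2 difference of ZBTB40 stayed above 0, from 0.22 to 0.36, with adjusted p from 0.109 to 0.635 (limma, and the per-gene test for the highest). With the replicate block, whose numbers are not known to mark a pairing, it was 0.30 with an adjusted p of 0.289 from limma. With that block no call of a member changed, and 109 genes passed over all genes. That of ZBTB42 ran from 0.23 to 0.40 (adjusted p from 0.111 to 0.705), of MTA2 from 0.29 to 0.42 (0.0638 to 0.607) and of HDAC2 from 0.25 to 0.35 (0.103 to 0.564). Among brighter genes only, where ZBTB40 is not tested, 1 member had an unadjusted p under 0.05 and 1 had groups that did not overlap. Leaving out 1 array, which makes groups smaller and more easily separated, gave 5 to 9 members without overlap. The shares of all genes under these settings are not given here, so these counts are not a result about the family. With the 8 other BTB zinc finger genes included, ZBTB40 ranked 28 by level. ZBTB34 turned lower after a further quantile normalization (-0.036), as the mean of its probe sets (-0.084), with its dimmest probe set (-0.12), and with its other probe sets one by one (-0.30, -0.041 and -0.12), an alternative chosen after seeing the data. The cause was not tested. Over all genes 126 passed, and from 1 (unshared variance) to 240 (centering) under the alternatives. The olfactory receptor genes themselves had a median log2 difference of -0.05 between CD47- and WT EVs, with 30.5% above 0. Centering raised the median of all genes from 0.0029 to 0.06, and moved 7 of the 35 other members by more than 1 SD, while no other alternative moved any of the 35 by that much. The family median was -0.0027 without WT replicate 3 and at most 0.08 with that centering. Most members, like most of all genes, lie below the olfactory receptor median, and whether probe sets this dim can show a change at full size was not tested.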
